A study of Mus musculus with 12 samples.

Results

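The 7 genes described here, Exoc3l4, Inf2, Adssl1, Pld4, Pacs2, Crip2 and Vipr2, are neighbours near the far end of mouse chromosome 12. They were chosen by their transcript levels, which differed between Fmr1 knockout and FVB cerebellum in these same libraries, and they are 7 of 57010 genes counted and of 19166 tested. All 7 passed the filter on low counts. The difference between the lines therefore chose them: it is described below with its values and is not a finding.

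The study measured RNA from mouse cerebellum, narrowed by the series title to crus 1, a lobule of the lateral hemisphere, in 12 bulk RNA-seq libraries. FVB, an inbred strain, gave 4 libraries from saline animals. The Fmr1 knockout gave 4 from saline animals (titled sham) and 4 from animals that received poly(I:C) into the peritoneum. Fmr1 codes for FMRP, which binds messenger RNA and is lost in fragile X syndrome, and poly(I:C) imitates the double-stranded RNA of viruses. Both knockout groups share the Fmr1 change. Treated FVB animals were not analysed here, so the response to poly(I:C) has no counterpart in FVB. For the knockout allele, its breeding history, and the animals' age and number, nothing was found in the labels. The p-values therefore measure the spread between libraries, which may be technical. Loss of Fmr1 and any other difference between the knockout and FVB lines cannot be told apart in these groups.

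Library totals were 35155420 to 56390207 counts. Fmr1 was at 33.4% of its FVB level with saline and 36.4% with poly(I:C), with no overlap between either group and FVB. The summed level of 8 Purkinje cell markers ranged from 6011 to 7950 CPM (counts scaled to a common library total) and that of 8 granule cell markers from 6508 to 7398 CPM, with none of them at 0 in any group. Of 11 marker lists, cerebellar interneurons had 1 gene called in saline knockout against FVB (Sorcs3) and the other 10 had 0. Ttr, a choroid plexus gene, was above 1000 CPM in saline knockout 2 and treated knockout 2 and 3 (2167 to 4156 CPM) and at 1.63 to 65.3 CPM in the other 9 libraries. The counts of called members and block genes, and some fold changes, are also given without these 3 libraries. Those of the pathway and marker lists are not.

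The members belong to different pathways. Vipr2 encodes VPAC2, a class B G protein-coupled receptor for vasoactive intestinal peptide (VIP) and the related peptide PACAP, which signals mainly through Gs, adenylyl cyclase and cyclic AMP and is best known in the brain for its part in the circadian clock of the suprachiasmatic nucleus. Inf2 encodes an inverted formin that polymerises and severs actin and takes part in mitochondrial fission, and Pacs2 a sorting protein of contacts between endoplasmic reticulum and mitochondria. Adssl1 encodes an adenylosuccinate synthetase, an enzyme on the way from IMP to AMP, and Pld4 a lysosomal exonuclease of single-stranded nucleic acids that is known from microglia and other myeloid cells. Crip2 encodes a small LIM-domain protein, and Exoc3l4 a protein related to the Exoc3 subunit of the exocyst, the complex that tethers secretory vesicles.

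The 250 bases before the start of 5 members are shown because the levels of these genes bear most on the results: Vipr2, Adssl1 and Pacs2 differed between the knockout groups, and Pld4 and Crip2 were on the same side of FVB in both knockout groups with no overlap. They come from RefSeq on GRCm38.p6, plus strand, and are windows of chr12:116077476-116077725 (Vipr2), chr12:112619797-112620046 (Adssl1), chr12:113014258-113014507 (Pacs2), chr12:112760405-112760654 (Pld4) and chr12:113139986-113140235 (Crip2, the first of its 2 starts in the table). This is the C57BL/6J reference, not sequence from FVB or the knockout line. Capitals mark a match to any of 8 motifs on either strand.
Vipr2: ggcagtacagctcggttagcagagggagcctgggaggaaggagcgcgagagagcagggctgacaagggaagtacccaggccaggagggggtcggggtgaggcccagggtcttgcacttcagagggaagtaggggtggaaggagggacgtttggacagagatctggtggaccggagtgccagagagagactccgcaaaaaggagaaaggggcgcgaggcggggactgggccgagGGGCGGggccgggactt
Adssl1: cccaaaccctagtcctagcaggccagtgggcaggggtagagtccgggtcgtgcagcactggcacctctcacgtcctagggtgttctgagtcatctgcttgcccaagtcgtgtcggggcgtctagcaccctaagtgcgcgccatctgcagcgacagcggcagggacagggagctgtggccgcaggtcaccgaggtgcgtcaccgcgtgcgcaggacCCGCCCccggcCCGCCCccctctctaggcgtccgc
Pacs2: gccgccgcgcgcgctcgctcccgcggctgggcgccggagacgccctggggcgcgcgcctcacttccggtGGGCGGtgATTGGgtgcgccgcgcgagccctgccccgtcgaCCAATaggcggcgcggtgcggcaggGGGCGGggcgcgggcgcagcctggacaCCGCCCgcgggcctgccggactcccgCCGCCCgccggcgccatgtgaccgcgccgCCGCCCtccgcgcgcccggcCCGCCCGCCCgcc
Pld4: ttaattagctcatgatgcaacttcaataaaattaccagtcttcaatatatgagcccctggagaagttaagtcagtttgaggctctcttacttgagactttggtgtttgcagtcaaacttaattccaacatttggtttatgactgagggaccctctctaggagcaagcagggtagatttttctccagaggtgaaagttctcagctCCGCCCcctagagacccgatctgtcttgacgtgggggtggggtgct
Crip2: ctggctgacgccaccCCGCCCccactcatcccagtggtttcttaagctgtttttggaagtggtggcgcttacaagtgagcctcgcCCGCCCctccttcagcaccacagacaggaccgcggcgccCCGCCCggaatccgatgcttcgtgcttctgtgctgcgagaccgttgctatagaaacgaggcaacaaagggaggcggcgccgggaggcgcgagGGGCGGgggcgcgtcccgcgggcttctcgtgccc

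The motifs searched were GGGCGG (known as the GC box), CCAAT (a site of the factor NF-Y), TATAAA (the motif near many transcription starts), CACGTG (one form of E-box), TGACGTCA (cyclic AMP response element), GAGGAAGT (a site of ETS factors), TTCNNNGAA (the interferon-gamma site of STAT factors) and the core of the interferon-stimulated response element. In these windows 6 of the 7 members held GGGCGG, which 32.7% of all 32851 promoter windows of the same length held. It occurred 7 times before Pacs2, 5 times before Inf2, 4 times before Crip2, 2 times before Adssl1, and once before Pld4 and before Vipr2, with overlapping matches counted. Exoc3l4 held none of the 8. Exoc3l4, Inf2 and Crip2 each have 2 starts, and only the first was searched. Pacs2 also held CCAAT 2 times (33.8% of all windows held it) and Inf2 CACGTG once (6.02%). The other 5 motifs were in none of the 7 windows, and 2.98% of all windows held the interferon core and 7.02% the STAT site. GC content was 84.8% before Pacs2, 65.2% to 68.4% before Vipr2, Crip2, Adssl1 and Inf2, 59.6% before Exoc3l4 and 45.2% before Pld4, against a median of 52.4% over all windows. CpG pairs numbered 50 before Pacs2, 26 before Crip2, 21 before Adssl1, 16 before Inf2, 13 before Vipr2, 4 before Exoc3l4 and 3 before Pld4, against a median of 6. The members therefore span CpG-rich and CpG-poor windows. All 7 lie on the plus strand, as do 49.4% of the 89 tested genes of the block.

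Vipr2 had the widest differences of the 7 between knockout and FVB in saline. FVB 1 to 4 had 23.0, 17.8, 17.8 and 16.1 CPM. The saline knockout libraries, in order of number, had 6.80, 6.83, 6.46 and 6.27 CPM. The treated ones had 15.2, 12.6, 15.9 and 10.2 CPM. Every saline knockout library lay below every treated one, and every treated one below every FVB library, so the 3 groups did not overlap. Means were 18.7 ± 2.97, 6.59 ± 0.272 and 13.5 ± 2.59 CPM (SD, n = 4). Against FVB this is a log2 fold change of −1.50 (SE 0.138) in the saline knockout, 35.3% of the FVB level, and of −0.47 (SE 0.133) in the treated knockout, 72.2% of the FVB level. The libraries high in Ttr did not stand apart: saline knockout 2 was at 6.83 CPM, and treated knockout 2 and 3 at 12.6 and 15.9 CPM between or beside the other treated libraries at 10.2 and 15.2 CPM. In bulk tissue, fewer cells that express Vipr2 and less Vipr2 RNA per cell cannot be told apart.

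Adssl1 was at 21.95, 21.9, 22.9 and 20.4 CPM in FVB 1 to 4. The saline knockout libraries were at 16.5, 16.5, 17.2 and 17.1 CPM. The treated ones were at 19.3, 21.2, 22.6 and 22.2 CPM. All 4 saline knockout libraries lay below all 8 others, and the treated knockout overlapped FVB. Against FVB the log2 fold change came to −0.37 (SE 0.0797) with saline and −0.03 (SE 0.0792, 95% interval −0.19 to 0.14) with poly(I:C).

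Inf2, the formin, had its means in the same order. It was at 37.0, 38.4, 42.2 and 42.1 CPM in FVB 1 to 4. Saline knockout libraries had 30.3, 32.2, 30.5 and 29.99 CPM and treated ones 34.9, 36.4, 44.9 and 31.5 CPM. The saline knockout lay wholly below FVB, while the treated libraries spread across both other groups, with treated knockout 4 inside the saline range and treated knockout 3 above all FVB libraries. Log2 fold changes against FVB were −0.38 (SE 0.0911) in the saline and −0.11 (SE 0.0906) in the treated knockout. The treated value was −0.22 without treated knockout 3, −0.045 without treated knockout 4 and −0.26 without the 3 libraries high in Ttr.

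Exoc3l4 was the least abundant member, with 34 to 107 counts per library. FVB 1 to 4 had 1.31, 2.84, 1.87 and 2.02 CPM, saline knockout 1 to 4 had 0.938, 0.857, 0.897 and 0.845 CPM, and treated knockout 1 to 4 had 1.36, 1.67, 1.26 and 1.06 CPM. The saline knockout lay below both other groups, which overlapped. Relative to FVB the log2 fold changes were −1.18 (SE 0.248) for saline and −0.58 (SE 0.240) for treated animals. The latter was −0.37 without FVB 2.

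Pacs2, the most abundant member, went the other way in saline. It was at 144, 159.5, 149 and 149 CPM in FVB 1 to 4. In saline knockout 1 to 4 it was 180.4, 179, 194 and 174 CPM. The treated knockout libraries were at 161, 146, 138 and 152 CPM. All 4 saline knockout libraries lay above the other 8, and treated knockout and FVB overlapped. Relative to FVB its log2 fold change was 0.28 (SE 0.0603) for saline and −0.01 (SE 0.0603, 95% interval −0.14 to 0.12) for treated animals.

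Crip2 and Pld4 were on the same side of FVB in both knockout groups. Crip2 was at 15.6, 18.7, 17.6 and 19.4 CPM in FVB 1 to 4. Knockout libraries had 22.8, 25.6, 22.1 and 25.1 CPM with saline and 24.2, 24.96, 28.0 and 21.8 CPM with poly(I:C). All 8 knockout libraries lay above all 4 FVB libraries, with log2 fold changes of 0.42 (SE 0.0948) and 0.47 (SE 0.0946). Pld4 was at 6.43, 7.84, 5.64 and 5.57 CPM in FVB 1 to 4. Knockout libraries had 3.00, 3.00, 3.38 and 4.50 CPM with saline and 3.76, 3.19, 3.20 and 1.89 CPM with poly(I:C). All 8 knockout libraries lay below all 4 FVB libraries, with log2 fold changes of −0.87 (SE 0.203) and −1.08 (SE 0.203).

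**Figure D1:**
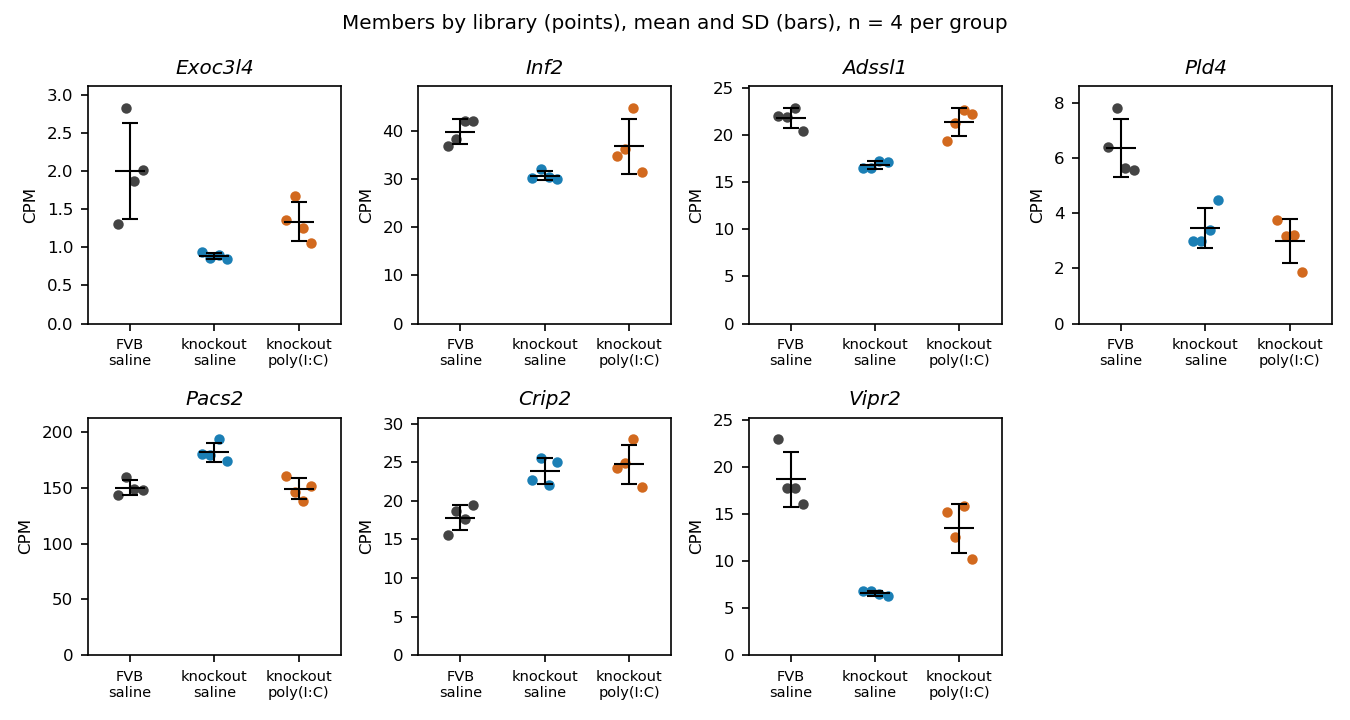
CPM of the 7 members in each library (points), with the group mean and SD (bars, n = 4), in FVB given saline, knockout given saline and knockout given poly(I:C). Vipr2, Adssl1, Exoc3l4 and Pacs2 in the treated knockout lie apart from the saline knockout, on the FVB side, while Crip2 and Pld4 stay with the saline knockout.

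In the saline knockout against FVB all 7 members were called (edgeR, Benjamini-Hochberg adjusted p under 0.05), where 1.53% of all tested genes were. The 2 higher members stand beside 0.814% of all genes and the 5 lower ones beside 0.72%. Nothing is read from these counts, since the contrast chose the members. The count of 7 was 2, 2, 2 and 3 without FVB 1, 2, 3 and 4, 3, 1 and 4 without saline knockout 1, 2 and 3, and 2 without the 3 libraries high in Ttr. Vipr2 was the one member called under each of these. The members' median log2 fold change was −0.38, and that of all tested genes 0.00331. In the treated knockout against FVB, a contrast that the choice of members also used and that shares the FVB libraries, 3 of 7 were called, where 7.05% of all genes were: Crip2 higher (3.81% of all genes), Vipr2 and Pld4 lower (3.24%). Of these 1 was called without the 3 libraries high in Ttr, Pld4. The log2 fold change of Crip2 was then 0.37 and that of Vipr2 −0.55. Vipr2 also lost its call in this contrast without FVB 1, 2 or 3, without treated knockout 2 or 4, and with only the 2 groups compared in the fit. The members' median was −0.115, beside 0.001003 over all genes. Libraries did not overlap for all 7 members in the first contrast (7.02% of all genes; 2 higher beside 3.57%, 5 lower beside 3.45%). In the second they did not overlap for 3 of 7 (14.2%; 1 higher beside 6.74%, 2 lower beside 7.46%). Called in both contrasts with FVB were Vipr2, Pld4 and Crip2 (3 of 7, where 1.04% of all genes were called in the same direction in both), and nothing is read from this count either. Adssl1, Pacs2, Inf2 and Exoc3l4 were called in the saline contrast and not in the treated one.

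Treated against saline knockout asks how the members respond to poly(I:C) within the knockout line, a contrast the listing did not name. Vipr2 rose 2.05-fold (log2 1.03, SE 0.137, edgeR adjusted p = 8.22e-05), with all 4 treated libraries above all 4 saline ones. Adssl1, the purine enzyme, rose 1.27-fold (log2 0.34, SE 0.0795, edgeR adjusted p = 0.0217). Pacs2, the sorting protein, fell by 0.29 on the log2 scale to 82.0% of its saline level (SE 0.0603, edgeR adjusted p = 0.0105). These 3 of 7 members stand beside 2.87% called among all genes (2 higher beside 1.81%, 1 lower beside 1.06%). The members' median log2 fold change was 0.26. The libraries did not overlap for these 3 and Exoc3l4, 4 of 7 beside 9.75% (3 higher beside 4.93%, 1 lower beside 4.82%). The saline knockout libraries entered both the choice of the members and this contrast, so a chance deviation of those libraries would appear in both with opposite sign, and the counts are not independent evidence of a response.

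The remaining members did not pass. Exoc3l4 differed by 0.60 (SE 0.249, 95% interval 0.0775 to 1.122, edgeR adjusted p = 0.242) and Inf2 by 0.26 (SE 0.0909, interval 0.0720 to 0.453, edgeR adjusted p = 0.147), both higher in the treated group. Pld4 differed by −0.21 (SE 0.204, interval −0.64 to 0.22, edgeR adjusted p = 0.692) and Crip2 by 0.05 (SE 0.0938, interval −0.15 to 0.25, edgeR adjusted p = 0.860). The value of Inf2 was 0.16 without treated knockout 3 and 0.13 without the 3 libraries high in Ttr. That of Pld4 was −0.037 without treated knockout 4, −0.052 without saline knockout 4, −0.33 without treated knockout 1 and −0.36 without the 3 libraries. The intervals leave room for a difference in Pld4 of −0.64 and in Crip2 of 0.25 on the log2 scale.

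The call of Vipr2 held under each of the 19 alternatives run, with log2 fold changes of 0.95 to 1.15 and adjusted p up to 0.00684. That largest p came without the 3 libraries high in Ttr, where the log2 fold change was 0.97. By edgeR, Adssl1 was no longer called without saline knockout 1 (adjusted p = 0.0627) or 2 (0.0666), without treated knockout 2 (0.0538), 3 (0.0814) or 4 (0.0698), or without the 3 libraries (0.458, log2 0.29). Pacs2 was no longer called without treated knockout 3 (edgeR, 0.0560) or without the 3 libraries (0.416, log2 −0.23). The count of 3 was therefore 1 without treated knockout 3 and 1 without the 3 libraries. Choroid plexus markers summed to 37.1 to 4457 CPM (saline) and 24.1 to 2849 CPM (treated) in the knockout (10 markers, none at 0 over a group), and their part in these differences was not tested. In the same contrast 3 of 12 microglia, 3 of 10 endothelial (Slco1a4, Ly6c1 and Tek), and 1 each of the astrocyte (Aqp4) and oligodendrocyte (Opalin) markers were called, and their part was likewise not tested.

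**Figure D2:**
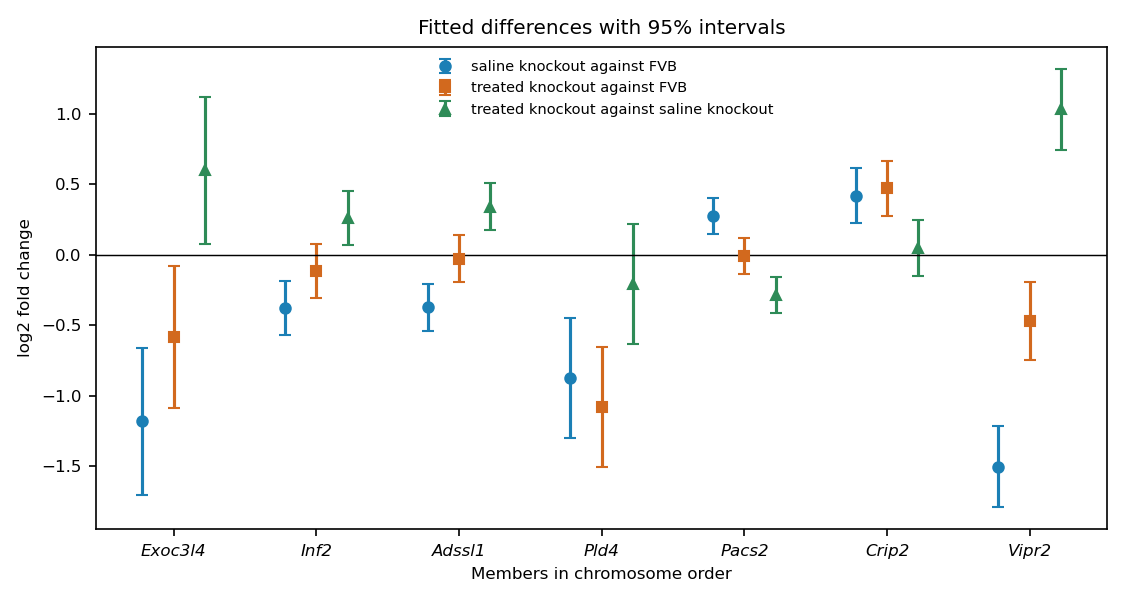
Fitted log2 fold changes of the 7 members with 95% intervals, for saline knockout against FVB (circles), treated knockout against FVB (squares) and treated against saline knockout (triangles). Vipr2 has the largest separation of the 3 values (−1.50, −0.47 and 1.03), and the treated-against-FVB values of Adssl1 and Pacs2 lie at −0.03 and −0.01.

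The block was taken as every tested gene from 1 Mb before Exoc3l4 to the end of the chromosome, 89 of 418 listed genes, placed by GENCODE M21. Along it, Inf2 and Adssl1 are adjacent in the order of tested genes, at places 45 and 46 of 89. Pld4, Pacs2 and Crip2 follow at places 52, 60 and 62, and Exoc3l4 at 22 and Vipr2 at 74 stand apart on either side. Between Inf2 and Crip2 lie 13 tested genes that are not members, of which 1 was called in the saline knockout against FVB. Of the 22 between Exoc3l4 and Inf2, 5 were called, and of the 11 between Crip2 and Vipr2, 0 were. The members are thus interspersed with genes that did not pass. In all 14 of 89 block genes were called in that contrast, 15.7% beside 1.53% of all genes. Without the members they were 7 of 82 (8.54%), beside 4 of 617 (0.648%) on the rest of chromosome 12. The block was drawn around members that this contrast chose, so these shares are a description and nothing is read from them. The 7 called genes that are not members all have predicted or RIKEN names. Of them, 2810029C07Rik (0.84) and A530016L24Rik (−3.03, log2) were not called in the treated knockout. There both were on the same side of FVB without overlap (log2 0.47 and −1.95, edgeR adjusted p = 0.0750 and 0.0678). A530016L24Rik had only 0 to 6 counts per saline knockout library. Single libraries lowered the 14 to 8, 9, 8 and 9 (without FVB 1 to 4), 9 and 7 (without saline knockout 1 and 2), and it was 9 without the 3 libraries high in Ttr.

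Of the 82 block genes that are not members, 5 were called in both knockout groups against FVB, and 4 of them were higher. Over all tested genes 1.04% were called in the same direction in both. Nothing is read from this count, since the block was drawn around members that the FVB difference chose. Gm40578, annotated as an antisense RNA, was at 0.711, 0.689, 0.771 and 1.07 CPM in FVB 1 to 4. Knockout libraries had 7.59, 5.72, 6.31 and 8.06 CPM with saline and 4.02, 4.71, 3.65 and 5.66 CPM with poly(I:C). Its log2 fold changes against FVB were 3.09 (SE 0.204) and 2.48 (SE 0.202), wider than those of any member. Gm30238 (2.97 and 2.45), 5033406O09Rik (2.75 and 2.38) and Gm266 (1.91 and 1.15) were also higher in both knockout groups, and D430020J02Rik was lower (−2.05 and −1.17). In each of these 5 the FVB libraries lay apart from all 8 knockout libraries. Over all tested genes 7.02% did not overlap in the saline contrast with FVB and 14.2% in the treated one. Gm40578 and Gm266 lie at places 24 and 25, near Exoc3l4. The labels do not state whether counting used strand, so reads of overlapping antisense genes cannot be told apart. Exoc3l4 overlaps the antisense gene Gm10425 (23 counts over all libraries, beside 721 for Exoc3l4), and Vipr2 overlaps Gm20658 (36 beside 6602).

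**Figure D3:**
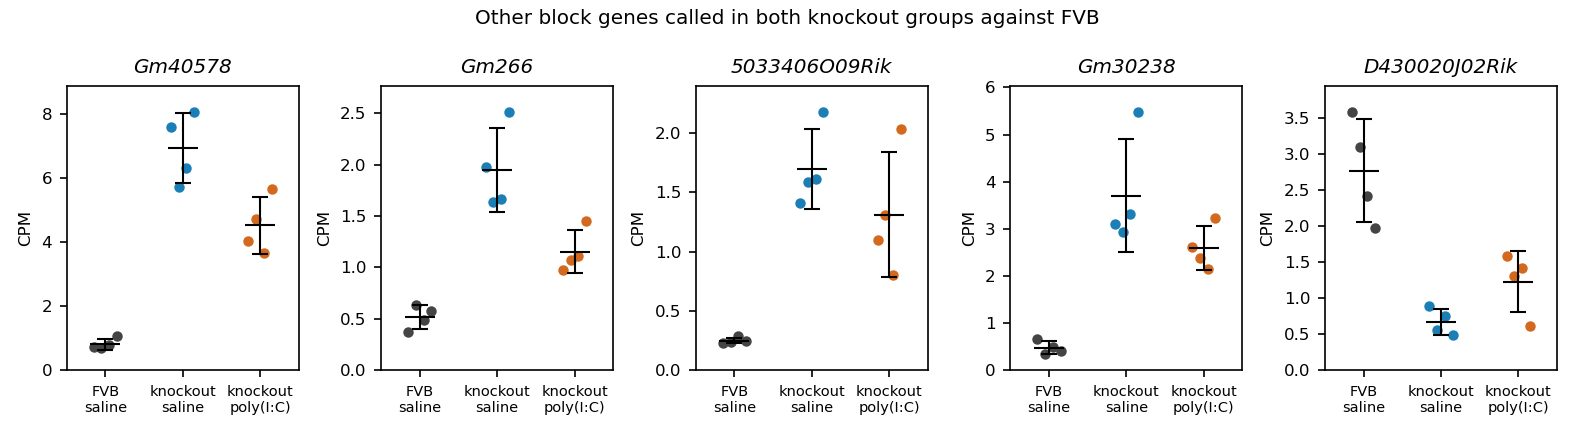
CPM by library (points), mean and SD (bars, n = 4) of the 5 block genes that are not members and were called in both knockout groups against FVB. FVB and all 8 knockout libraries do not overlap in any of them, and Gm40578, Gm30238, 5033406O09Rik and Gm266 are higher in both knockout groups.

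In the treated knockout against FVB the block had 13 of 89 called genes (14.6%, against 7.05% of all genes). This share too is a description only, since the FVB difference chose the members. Without the 3 libraries high in Ttr the block had 6 called genes, and without FVB 1 it had 8. Of those called here and not in the saline contrast, Mok (a kinase, 0.51) was higher, while Bag5 (a co-chaperone, −0.24), Akt1 (a kinase of insulin signalling, −0.22), Mta1 (a chromatin regulator, −0.20) and Ighm (the immunoglobulin mu chain, −0.94) were lower, as log2 fold changes. Summed markers of lymphocytes and the B lineage were at 2.87 to 5.43 CPM in FVB and 2.63 to 7.66 CPM in the treated knockout (8 markers), and their part in the value of Ighm was not tested. In treated against saline knockout 5 of 89 were called (5.62%, against 2.87%): Vipr2, Adssl1 and Pacs2, and 2 genes that are not members. Aspg, an asparaginase, went from 3.12 ± 0.990 to 7.28 ± 2.29 CPM (SD, n = 4), a rise of 1.22 on the log2 scale (SE 0.231, edgeR adjusted p = 0.00506). Dnah11, a dynein chain of cilia, went from 11.6 ± 1.93 to 19.9 ± 4.54 CPM (log2 0.78, SE 0.186, edgeR adjusted p = 0.0380). The libraries high in Ttr had the highest Dnah11 of their groups. Saline knockout 2 was at 14.3 CPM, and treated knockout 2 and 3 were at 19.6 and 26.4 CPM. The part of choroid plexus in this difference was not tested. The count of 5 was 3 without saline knockout 1 or treated knockout 2, and 2 without treated knockout 3. Without the 3 libraries high in Ttr it was 1, Vipr2, so neither Aspg nor Dnah11 was called.

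**Figure D4:**
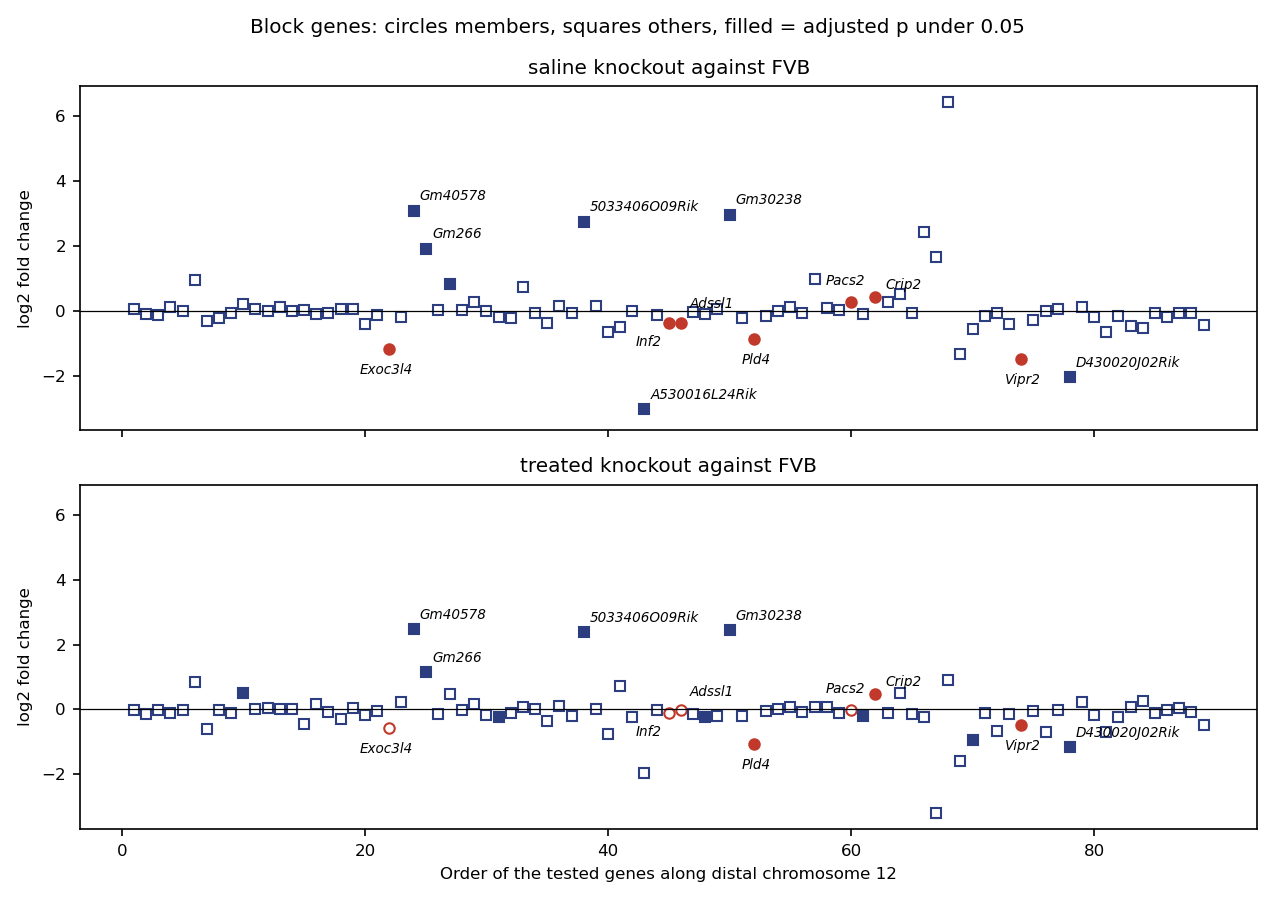
Log2 fold change against FVB of the 89 tested block genes in chromosome order, for the saline (top) and treated (bottom) knockout. Circles are members, squares other genes, and filled symbols have an adjusted p under 0.05; Exoc3l4, Inf2, Adssl1 and Pacs2 are filled only in the top panel, and Gm40578, Gm266, 5033406O09Rik, Gm30238 and D430020J02Rik in both.

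Across genes, levels are compared per length (CPM per kilobase of exon, called RPKM here, with exon lengths from GENCODE M21). In FVB the order of members was Pacs2 (21.5 ± 0.934), Adssl1 (10.4 ± 0.499), Crip2 (8.499 ± 0.789), Inf2 (8.20 ± 0.540), Vipr2 (4.19 ± 0.666), Pld4 (1.84 ± 0.305) and Exoc3l4 (0.355 ± 0.112 RPKM, SD, n = 4). Crip2 and Inf2 differed by less than their spread. The saline knockout ranked Crip2 (11.4) above Adssl1 (8.05) and Inf2 (6.31), and the treated knockout likewise had Crip2 (11.8), Adssl1 (10.2) and Inf2 (7.58). Vipr2 was at 1.48 ± 0.0610 RPKM in the saline and 3.02 ± 0.580 RPKM in the treated knockout.

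Vipr2 has 2 sister receptors for the same peptides. Adcyap1r1, the PACAP-preferring receptor PAC1, was at 23.2 ± 2.28 RPKM in FVB, 22.6 ± 2.21 in saline knockout and 18.7 ± 0.553 in treated knockout. Vipr1 (VPAC1) was at 1.55 ± 0.191, 1.07 ± 0.326 and 0.940 ± 0.257 RPKM (SD, n = 4). Vipr2 lay between them in each group, nearest to Vipr1 in the saline knockout. Vipr1 in CPM was lower without overlap in both knockout groups (8.97 ± 1.11 in FVB, 6.20 ± 1.89 and 5.45 ± 1.49, SD, n = 4) and passed in neither contrast (edgeR adjusted p = 0.325 and 0.0639). Of the peptides, Adcyap1 (PACAP) was at 1.65 ± 0.716, 2.06 ± 1.91 and 1.69 ± 0.631 CPM (SD, n = 4). Its saline knockout mean rests on saline knockout 2, high in Ttr, at 4.89 CPM, beside 1.43, 0.718 and 1.22 CPM in the other libraries of that group. Vip had 0 to 6 counts per library, too few to be tested. Of 26 tested genes of VIP and PACAP signalling, Vipr2 not included, 1 was called in the saline knockout against FVB, Adcy5 (an adenylyl cyclase, 72.9 to 57.04 CPM, log2 −0.36), with a list median of −0.04. In the treated knockout against FVB 6 were called (23.1%, beside 7.05% of all genes): Ramp2, a receptor activity-modifying protein (1.00), and Rapgef3, a cyclic AMP-activated exchange factor (0.42), were higher, and Adcy5 (−0.42), Adcy8 (−0.59), Prkar2b, a regulatory subunit of protein kinase A (−0.39), and Adcyap1r1 (−0.31) were lower. Against saline knockout 1 rose in the treated group, Ramp2 (17.4 to 29.4 CPM, log2 0.76, edgeR adjusted p = 0.0133), and the list median was −0.03.

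Relatives and partners of the other members mostly did not pass. Of 23 formins and partners of Inf2, 0 were called in saline knockout against FVB and 1 in treated knockout against FVB (Fmn2, −0.23). None of 13 exocyst and Exoc3-like genes and none of 19 purine synthesis genes was called by edgeR in any of the 3 contrasts. Adss, the other adenylosuccinate synthetase, was at 62.6, 65.5 and 60.8 CPM in the 3 groups. Tnfaip2, an Exoc3-like gene next to Exoc3l4 in the block, was at 1.25, 1.101 and 1.49 CPM. Of 17 genes of the PACS and contact-site list, 1 was called in saline knockout against FVB (5.88%, beside 1.53% of all genes). In treated knockout against FVB 4 were called (23.5%, beside 7.05%). Pkd2, a calcium-permeable channel, was higher in both knockout groups (0.42 and 0.52). Mfn1, a mitofusin, was higher in the treated group (0.26), and Pacs1 (−0.31) and Vapa (−0.24) were lower there. Crip1, the LIM gene just after Crip2 in the block, was at 3.39 ± 0.509, 4.05 ± 0.698 and 3.12 ± 0.475 CPM (SD, n = 4), with overlapping groups. Of 4 tested CRIP and CSRP genes Csrp1 was called, in treated knockout against FVB (0.26). Of 4 tested phospholipase D genes Pld2 fell in treated against saline knockout (14.9 to 11.6 CPM, log2 −0.37, edgeR adjusted p = 0.0282), while Pld3, the closest relative of Pld4, was at 80.7, 85.5 and 81.0 CPM.

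Pld4 is a gene of microglia, and 12 microglia markers are given beside it. Their sum ranged over 151 to 178 CPM in FVB, and over 135 to 169 (saline) and 139 to 179 (treated) in the knockout, so the groups overlapped, with none at 0. In the saline knockout against FVB 0 of the 12 were called by edgeR, with a median log2 fold change of −0.18. In the treated knockout against FVB P2ry12 (−0.59) and Gpr34 (−0.87) were lower and C1qb (0.65) was higher, with a median of −0.32. For Crip2, found in vascular cells among others, 10 endothelial markers summed to 267 to 333, 287 to 367 and 278 to 347 CPM in the 3 groups, and 8 mural markers to 238 to 286, 273 to 334 and 250.2 to 263 CPM. In the treated knockout against FVB 3 of the 10 endothelial markers were called, Ly6c1 higher (1.24) and Slco1a4 (−0.68) and Tek (−0.95) lower, and in the saline knockout against FVB 0 were called by edgeR. None of the 8 mural markers was called by edgeR in either contrast. Their part in the differences of Pld4 and Crip2 was not tested.

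Over the 12 libraries, which fall into the 3 groups and so mostly reflect group means, the genes whose log2 CPM was most like that of Vipr2 among 13415 were Fbxl12os (Pearson r = 0.925), Stil (0.886), Osbpl3 (0.886), Adgrb1 (0.880) and Mpdz (0.867), none of them on chromosome 12. Only genes with a symbol and a mean log2 CPM of at least 1 were ranked, so block genes below that level could not appear. The genes most opposite to Vipr2 were Slc25a18 (−0.910), Pigu (−0.908), Gm10039 (−0.892), Nxpe4 (−0.890) and Syt4 (−0.879). The closest gene was Aars2 for Adssl1 (0.926), Usp22 for Pacs2 (0.937), Inhba for Exoc3l4 (0.938), Inpp1 for Inf2 (0.880), Gpr26 for Pld4 (0.929) and Zik1 for Crip2 (0.953). Nxpe4 mirrored the order of Vipr2, ranging over 3.49 to 4.69 CPM in FVB, 12.9 to 15.2 with saline and 7.03 to 10.4 with poly(I:C). Among the members themselves, the 21 pairs had r from −0.90 (Adssl1 and Pacs2) to 0.859 (Adssl1 and Vipr2). For deviations from the group means r ranged from −0.48 (Inf2 and Pacs2) to 0.772 (Inf2 and Crip2), with 12 of 21 positive and a median of 0.0870. These values share libraries and scaling and are given as a description.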

How the data were processed

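Bulk RNA-seq read counts per Ensembl gene were deposited by the authors as whole numbers for 12 samples. The submitters' processing notes name Trim Galore, HISAT2, featureCounts and GRCm39. Their versions, the annotation release, the strand setting and the handling of multi-mapping reads are not stated there. Groups came from the labels. Symbols came from a separate list of gene names, which named 52029 of 57010 genes. Gene order came from GENCODE M21 (GRCm38). Its coordinates also set the limit of the block, found overlapping genes and gave exon lengths.

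Genes were kept by filterByExpr (minimum count 10, minimum total 15), which left 19166. With TMM scaling, edgeR 4.0.16 (R 4.3.3) fitted a robust quasi-likelihood model of 3 groups (9 residual degrees of freedom). P-values were adjusted by Benjamini-Hochberg over all tested genes, and called means an adjusted p under 0.05. CPM use TMM-scaled totals, and correlations use log2 CPM with a prior count of 2. Totals of 35155420 to 56390207 counts limit precision mainly for Exoc3l4.

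The members and lists were chosen with earlier results of these data known. Named genes are the members, block genes called against FVB, genes most like Vipr2 (5 highest and 5 lowest r) and the closest to each other member, and called genes of 7 pathway lists. Aspg, Dnah11 and the relatives and ligands of members that were not called were added after their values were seen. Marker lists covered microglia, endothelial, mural, choroid plexus, meningeal, Purkinje, granule, interneuron, astrocyte, oligodendrocyte and lymphocyte genes. Alternatives were RLE and upper quartile scaling, DESeq2 1.42.0, no filter, a replicate block, fits of only the 2 groups compared, and leaving out each library or the 3 high in Ttr. The code was tested on simulated counts. Replicate libraries differed by more than counting noise (chi-square per gene 12.3 to 36.4 over 18 pairs).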

Additional observations from a re-analysis of the deposited data

How the results depend on the processing

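Of 399 member fold changes under alternatives, 334 kept direction and side of the threshold, 58 kept direction only and 7 reversed. Vipr2 was called in each alternative for saline knockout against FVB and for treated against saline knockout. Leaving out the 3 libraries high in Ttr gave 2, 1 and 1 members called (saline knockout against FVB, treated knockout against FVB, treated against saline knockout; 7, 3 and 3 with all libraries) and 9, 6 and 1 block genes (14, 13 and 5). It also turned the treated-against-saline log2 fold change of Crip2 to −0.018 and the treated-against-FVB one of Pacs2 to 0.059. DESeq2 called 20 block genes in treated knockout against FVB. Over all genes, where edgeR called 294, 1352 and 550, DESeq2 called 633, 1935 and 986, no low-count filter gave 506, 1626 and 783, and leaving out the 3 libraries gave 229, 556 and 215. Leaving out single libraries gave 1 to 7, 2 to 3 and 1 to 3 members, and 7 to 14, 8 to 16 and 2 to 6 block genes. Over these, Adssl1 and Pacs2 in treated knockout against FVB ranged from −0.059 to 0.017 and from −0.047 to 0.027, and Crip2 in treated against saline knockout from −0.011 to 0.11. The cause of these shifts was not tested, and the fits that left out libraries also had fewer of them.

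With the replicate number as a block, 5, 3 and 3 members and 12, 12 and 5 block genes were called. The log2 fold change of Vipr2 in treated against saline knockout was then 1.01. Same-numbered libraries correlated over 0.1 in 5 of 12 pairs (−0.13 to 0.30). The highest value joined saline knockout 2 and treated knockout 2, both high in Ttr. Differently numbered libraries were not compared, so these values cannot decide whether the numbers pair libraries. Exoc3l4, at 34 to 107 counts, is the member that depth limits most.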
